A study of Homo sapiens with 12 samples.

Results

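The zinc finger genes of human chromosome 19 are described here in C4-2 cells with and without knockdown of choline kinase alpha (CHKA). Members were the protein-coding genes of that chromosome whose symbol is ZNF followed by digits and at most 1 letter, with 100 or more reads summed over the 12 samples. The annotation held 246 such genes, of which 236 had an identifier in the count files and 206 had enough reads, out of 54127 identifiers in all. Of the 206 members, 203 passed the expression filter and were tested among 14501 genes, and ZNF492, ZNF575 and ZNF677 were not. The choice used the read total over all samples and not the difference between groups, and at its limit ZNF575 had 102 reads and ZNF665, just outside, had 90.

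C4-2 is an established line of prostate cancer epithelium, and the study asked how the transcriptome of these cells depends on CHKA, the first enzyme of the pathway that makes phosphatidylcholine from choline. The 6 SiCHKA samples received an siRNA pool against CHKA and the 6 SiNTCONTROL samples a nontargeting control. All 12 were grown in RPMI medium with serum and reverse-transfected with Lipofectamine RNAiMAX at 50 nM siRNA. The design has 1 cell line and 1 pool against CHKA, so loss of CHKA and other effects of that pool cannot be told apart.

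Most genes of this kind encode proteins with an array of C2H2 zinc fingers, which bind DNA, and many carry a KRAB box at the amino end. The KRAB box recruits TRIM28 (KAP1), which in turn brings the H3K9 methyltransferase SETDB1, HP1 proteins and histone deacetylases, and the resulting heterochromatin silences transposable elements and other targets. These genes multiplied by tandem duplication and stand in clusters on chromosome 19, where their own gene bodies are known to carry H3K9 methylation.

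The promoters of 4 members are shown, the largest fall and the 3 largest rises among called members with a mean of at least 5 CPM (CPM is the read count scaled to library size), because they include neighbours that moved together and members of 1 cluster that moved in opposite directions. ZNF714 (ENSG00000160352) fell most, ZNF737 (ENSG00000237440) rose in the same cluster, and ZNF585A (ENSG00000196967) and ZNF585B (ENSG00000245680) are adjacent genes that rose most among those members. Each sequence is from RefSeq on GRCh38.p14, reads 5′ to 3′ on the gene's own strand and runs from 250 bases before to 50 bases after the start. The windows are chr19:21081953-21082252 on the plus strand for ZNF714, and chr19:20565732-20566031, chr19:37172646-37172945 and chr19:37210487-37210786 on the minus strand for ZNF737, ZNF585A and ZNF585B. Capitals mark the letters CCAAT, their reverse complement ATTGG, and GGGCGG or its reverse complement CCGCCC.
ZNF714: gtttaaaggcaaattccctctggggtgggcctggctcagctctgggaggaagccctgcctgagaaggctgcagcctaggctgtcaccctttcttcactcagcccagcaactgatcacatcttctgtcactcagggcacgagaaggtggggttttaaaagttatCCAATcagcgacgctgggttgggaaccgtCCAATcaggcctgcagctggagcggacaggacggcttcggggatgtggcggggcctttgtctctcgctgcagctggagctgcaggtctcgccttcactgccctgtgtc
ZNF737: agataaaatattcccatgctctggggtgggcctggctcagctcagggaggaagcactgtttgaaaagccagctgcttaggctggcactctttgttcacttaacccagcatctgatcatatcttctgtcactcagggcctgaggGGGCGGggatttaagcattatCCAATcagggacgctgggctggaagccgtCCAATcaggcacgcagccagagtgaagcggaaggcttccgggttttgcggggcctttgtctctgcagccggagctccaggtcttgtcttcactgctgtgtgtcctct
ZNF585A: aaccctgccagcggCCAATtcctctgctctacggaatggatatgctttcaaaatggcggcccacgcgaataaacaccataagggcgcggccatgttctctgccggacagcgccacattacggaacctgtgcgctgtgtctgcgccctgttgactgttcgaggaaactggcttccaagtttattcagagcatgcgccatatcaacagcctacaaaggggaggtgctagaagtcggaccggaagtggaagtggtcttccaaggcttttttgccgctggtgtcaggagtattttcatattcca
ZNF585B: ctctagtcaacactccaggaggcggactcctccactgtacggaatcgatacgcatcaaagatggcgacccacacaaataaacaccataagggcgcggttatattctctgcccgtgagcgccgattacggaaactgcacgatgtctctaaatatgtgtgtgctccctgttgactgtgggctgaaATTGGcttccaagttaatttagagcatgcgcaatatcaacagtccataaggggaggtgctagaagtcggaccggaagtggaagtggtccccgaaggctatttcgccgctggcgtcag
The ZNF714 and ZNF737 windows were 78.2% identical and each held CCAAT at 2 places, while the transcripts of these genes moved in opposite directions. ZNF585A and ZNF585B were 73.4% identical and held CCAAT at 1 place each, as ATTGG in ZNF585B. ZNF714 and ZNF585A were 51.3% identical, near the median of 50.4% over pairs of members outside cluster 4.

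CHKA itself checked the labels. Its level was 1.91, 2.31 and 4.67 CPM (lowest, median and highest) in SiCHKA and 36.7, 41.6 and 43.3 CPM in SiNTCONTROL. The log2 fold change was -3.88 (SE 0.14, n = 6 per group, adjusted p = 5.89e-13 by edgeR's quasi-likelihood test with Benjamini-Hochberg adjustment). Reads on genes ran from 10685184 to 24246055 per sample and did not pass a test between groups (exact permutation p = 0.58, two-sided), and 3 reads corresponded to 0.124 to 0.281 CPM. The share of uniquely aligned reads outside genes was higher in every SiCHKA sample, with a median of 7.46% against 6.28% (exact permutation p = 0.00216, two-sided, the smallest that 6 against 6 can give), and its part in the results was not tested. All 9 markers of the prostate epithelium line were expressed, while PTPRC, KRT5, TP63 and CHGA were at or near 0 and COL1A1 was at 26.8 CPM in SiCHKA and 15.03 CPM in SiNTCONTROL, whose part was not tested either.

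SiCHKA replicates 1, 3 and 5 stood apart from replicates 2, 4 and 6. Their deviations from the group mean over all tested genes correlated at 0.20 to 0.44 within these sets and at -0.61 to -0.45 across them. Among the 203 tested members, the median difference between the sets was 0.03 on the log2 scale, 41 members were higher in all of replicates 2, 4 and 6 than in all of 1, 3 and 5, and 29 were lower. The same counts over all tested genes were not made, so these numbers do not set the members apart from other genes. Counts are therefore also given without each set. Whether the replicates came from separate cultures is described in more than 1 way in the study, so p-values measure the spread between these samples, which may be partly technical.

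Chromosome 19 zinc finger transcripts were on balance higher after CHKA knockdown. Of the 203 tested members, 104 (51.2%) rose and 32 (15.8%) fell past an adjusted p of 0.05 in edgeR's quasi-likelihood test, against 32.1% of all tested genes called higher and 30.1% called lower. Their median log2 fold change was 0.26, against 0.03 over all tested genes, and single members ran from -1.53 to 1.497. With a further requirement of a 1.5-fold change, 34 of the 203 rose and 9 fell, where 13.4% and 11.3% of all tested genes were called. The share of members that rose was then nearer to that of all genes, while the share that fell stayed below it. Together the 206 members held 3346, 3448 and 3500 CPM (lowest, median and highest) in SiCHKA and 3010, 3109 and 3150 CPM in SiNTCONTROL, so the groups did not overlap. The groups did not overlap for 72 members that were higher and 19 that were lower, beside 19.1% and 21.5% of all genes. Without SiCHKA replicates 1, 3 and 5, 107 rose and 24 fell, and without replicates 2, 4 and 6, 89 rose and 35 fell. Bulk RNA does not separate a change in every cell from a change in the share of cells with that transcript.

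ZNF genes on other chromosomes were called in each direction at shares nearer to those of all genes. Of 219 tested ZNF genes on other chromosomes, 68 (31.1%) rose and 58 (26.5%) fell, with a median log2 fold change of 0.02. Of 706 other tested protein-coding genes of chromosome 19, 296 (41.9%) rose and 157 (22.2%) fell, with a median of 0.12. The difference between these sets and the members was not tested.

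**Figure D1:**
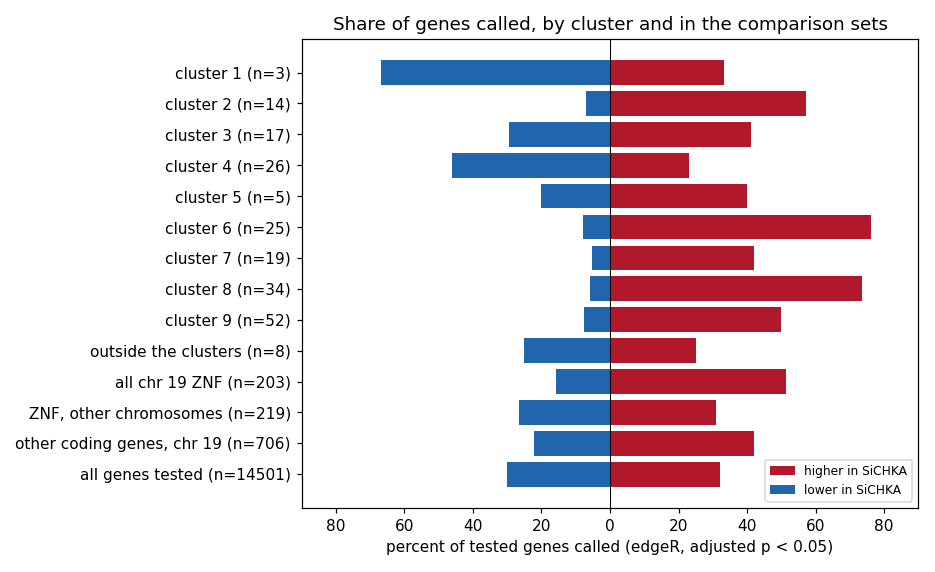
Percent of tested genes called higher (red, to the right) or lower (blue, to the left) in SiCHKA at an adjusted p under 0.05, by cluster of chromosome 19 and in the comparison sets, with the number tested in parentheses. The longest red bars are those of clusters 6 and 8 (76.0% and 73.5%), and blue exceeds red in clusters 1 and 4.

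The members were then grouped by position along the chromosome, and the counts by cluster are a description, since differences between clusters were not tested. A new cluster was started where the starts of neighbouring genes were over 1 Mb apart or the centromere lay between them, and 9 runs of at least 5 genes resulted, numbered from the short-arm end (GRCh38 positions). Clusters 2, 6, 7, 8 and 9 leaned to higher levels, beside 32.1% of all tested genes called higher and 30.1% called lower. In cluster 7 the share that rose, 42.1%, was near the 41.9% of other protein-coding genes of chromosome 19. Cluster 6 (36.2 to 37.8 Mb, ZNF565 to ZNF573) had 19 members higher and 2 lower of 25, with a median log2 fold change of 0.42. Cluster 8 (51.6 to 53.6 Mb, ZNF175 to ZNF331) had 25 higher and 2 lower of 34, with a median of 0.48. These were the highest cluster medians of the 9. Cluster 9 at the long-arm end (55.5 to 58.5 Mb, ZNF628 to ZNF446) had 26 higher and 4 lower of 52, with a median of 0.26. Cluster 2 (7.07 to 9.79 Mb) had 8 higher and 1 lower of 14, and cluster 7 (43.5 to 45.1 Mb) had 8 higher and 1 lower of 19, with medians of 0.33 and 0.20. In clusters 3 and 5 the directions were mixed, with 7 higher and 5 lower of 17 and 2 higher and 1 lower of 5. Cluster 1 had only 3 tested members, of which 1 rose and 2 fell. Among the 8 tested members outside the clusters, 2 rose and 2 fell. Without SiCHKA replicates 2, 4 and 6, 13 members of cluster 6 and 24 of cluster 8 rose, and without replicates 1, 3 and 5, 19 and 25 rose. Small counts moved when 1 sample was left out. In cluster 5, 1 member rose without SiCHKA replicate 2, 4 or 6 or SiNTCONTROL replicate 1, 2, 4, 5 or 6. The fallen members of cluster 2 numbered 0 without SiCHKA replicate 6 and 2 without SiCHKA replicate 2 or 4 or SiNTCONTROL replicate 4. Those of cluster 6 numbered 1 without SiCHKA replicate 1 or 3 or SiNTCONTROL replicate 5, and those of cluster 8 numbered 1 without SiCHKA replicate 3.

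Cluster 4, which ends at the centromere (19.7 to 24.1 Mb, ZNF101 to ZNF254), had more members lower than higher. Of its 26 tested members, 6 rose (ZNF14, ZNF253, ZNF737, ZNF493, ZNF429 and ZNF91) and 12 fell (ZNF101, ZNF93, ZNF682, ZNF85, ZNF430, ZNF714, ZNF431, ZNF738, ZNF100, ZNF43, ZNF724 and ZNF726), with a median log2 fold change of -0.19. The shares were 23.1% higher and 46.2% lower, beside 32.1% and 30.1% of all tested genes. No other tested protein-coding gene lay inside the cluster. When any 1 sample was left out, 5 to 7 rose and 10 to 13 fell, with medians of -0.22 to -0.16. This lean did not hold under every alternative. With an offset for GC content and length, 10 rose and 8 fell and the median was -0.05, and without SiCHKA replicates 1, 3 and 5, 9 rose and 9 fell. Cluster 4 members had a median GC content of 36.8%, against 42.2% over all members, and a median of 85.0% of their 40-base windows occurred once in the genome, against 93.9%.

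Neighbours usually moved the same way. Of 188 pairs of neighbouring tested members with starts at most 1 Mb apart, 87 had both genes called, and in 70 of these (80.5%) the direction was the same. The share was 53.3% over 4966 such pairs of protein-coding genes, and 63.7% over all 9180 pairs of called members at any distance. These pairs share genes and are given as a description. Some neighbours also share part of their span on the same strand, such as ZNF580 with ZNF581 and ZNF28 with ZNF468, which rose together. Reads ambiguous between genes were not counted, and the part of such shared spans was not tested. Other tested protein-coding genes lay between the members of some clusters. In cluster 2, 18 of 29 such genes rose and 5 fell, with a median log2 fold change of 0.26. In cluster 7, 7 of 15 rose and 4 fell, and in cluster 9, 5 of 16 rose and 3 fell, with medians of 0.03 and 0.12. Over all tested genes 32.1% rose and 30.1% fell, so these cluster 9 genes rose about as often as all genes.

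The level of each cluster was also summarised in every sample as the median over its members of the log2 level relative to the SiNTCONTROL mean. For all members this was 0.21, 0.24 and 0.29 (lowest, median and highest) in SiCHKA and -0.05, 0.01 and 0.02 in SiNTCONTROL. Cluster 8 was at 0.39, 0.47 and 0.55 in SiCHKA and -0.06, 0.02 and 0.07 in SiNTCONTROL. Cluster 6 was at 0.29, 0.38 and 0.46 against -0.05, -0.01 and 0.09. All 6 SiCHKA samples were above all 6 controls for clusters 2, 6, 7, 8 and 9, and below them for cluster 1 with its 3 members. Cluster 4 was at -0.23, -0.18 and -0.06 in SiCHKA and -0.13, 0.00 and 0.11 in SiNTCONTROL, so its groups overlapped, as they did for clusters 3 and 5. The median over all tested genes was 0.02, 0.02 and 0.04 in SiCHKA and -0.00, 0.00 and 0.02 in SiNTCONTROL. There too every SiCHKA sample (lowest 0.0161) was above every control (highest 0.0159), so a lack of overlap alone does not set the clusters apart.

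The 10 largest rises among called members with a mean of at least 5 CPM came from clusters 4, 6, 8 and 9. ZNF585B and ZNF585A are adjacent KRAB genes of cluster 6 that each encode 769 residues with 21 fingers. ZNF585A was at 15.8, 17.4 and 20.6 CPM (lowest, median and highest) in SiCHKA and 6.89, 8.30 and 9.75 CPM in SiNTCONTROL. ZNF585B was at 10.3, 10.6 and 11.7 CPM against 4.25, 4.81 and 6.42 CPM. All SiCHKA samples were above all controls for both, and the log2 fold changes were 1.11 (SE 0.09) and 1.12 (SE 0.10), with edgeR adjusted p-values of 2.52e-08 and 2.18e-08. Only 82.3% and 73.9% of their 40-base windows occurred once in the genome. Reads that aligned to more than 1 place were not counted, so the separate values are uncertain.

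ZNF737 was the member of cluster 4 that rose most, from 5.35, 6.56 and 8.39 CPM in SiNTCONTROL to 12.6, 13.7 and 14.6 CPM in SiCHKA, a log2 fold change of 1.02 (SE 0.09, edgeR adjusted p = 6.15e-08). Its groups did not overlap, and 80.6% of its windows were unique. Of the same cluster, ZNF91, which represses SVA retrotransposons, was named after its values were seen. It was at 24.4, 30.6 and 33.2 CPM in SiCHKA and 18.1, 21.6 and 24.1 CPM in SiNTCONTROL, with all SiCHKA samples above all controls and a log2 fold change of 0.49 (SE 0.09, edgeR adjusted p = 9.35e-05), and 70.6% of its windows were unique.

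In cluster 8 the largest rise was that of ZNF83, whose canonical transcript encodes 14 fingers and no KRAB pattern. It was at 44.3, 51.6 and 56.6 CPM in SiCHKA and 22.7, 25.6 and 29 CPM in SiNTCONTROL, a log2 fold change of 0.98 (SE 0.08, edgeR adjusted p = 7.81e-09). Further KRAB genes that lie near each other in this cluster rose without overlap of the groups. ZNF528 was at 39.5, 46.6 and 53.5 CPM against 23.4, 26.1 and 26.7 CPM, with a log2 fold change of 0.87. ZNF880 was at 18.7, 19.6 and 19.8 CPM against 10.1, 11 and 11.7 CPM, with a log2 fold change of 0.82 (SE 0.06, edgeR adjusted p = 2.40e-09). ZNF610 and, further along, ZNF347 had log2 fold changes of 0.88 and 0.85. Against this direction, ZNF649 fell by 0.36 on the log2 scale.

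In cluster 9, ZNF580, a short protein of 3 fingers without a KRAB pattern, was at 20.7, 21.8 and 25.5 CPM in SiCHKA and 10.8, 12.5 and 13.4 CPM in SiNTCONTROL. Its log2 fold change was 0.88 (SE 0.08, edgeR adjusted p = 2.44e-08), and every SiCHKA sample was above every control. ZNF776, a KRAB gene, had a log2 fold change of 0.77 and did not overlap either. In the other direction, ZNF544 was at 30.4, 35.7 and 38.4 CPM in SiCHKA and 50.6, 53.2 and 55.4 CPM in SiNTCONTROL, and its log2 fold change was -0.59 (SE 0.06, edgeR adjusted p = 2.25e-07). ZNF772 in the same cluster fell by 0.64.

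Of the 10 largest falls, 7 came from cluster 4, where ZNF714 changed most. It was at 9.44, 10.8 and 12.8 CPM in SiCHKA and 28.9, 32.1 and 38.0 CPM in SiNTCONTROL, with no overlap. Its log2 fold change of -1.53 (SE 0.08, edgeR adjusted p = 5.77e-11) was the lowest of all tested members. ZNF726 was at 7.37, 10.1 and 10.9 CPM against 15.7, 16.2 and 18.6 CPM, a log2 fold change of -0.80. ZNF100 was at 14.9, 16.3 and 19.3 CPM against 23.2, 28.3 and 30.6 CPM, a log2 fold change of -0.74 (SE 0.08, edgeR adjusted p = 2.60e-07). ZNF724, ZNF85 and ZNF738 had log2 fold changes of -0.91, -0.85 and -0.74, and none of these overlapped between groups. ZNF93, which represses LINE-1 elements, was at 4.76, 5.28 and 5.52 CPM in SiCHKA and 5.94, 7.70 and 8.71 CPM in SiNTCONTROL, a log2 fold change of -0.54 (SE 0.10, edgeR adjusted p = 1.09e-04). ZNF91 and ZNF93, both silencers of retrotransposons, lay in 1 cluster and had changes of opposite sign.

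Outside the clusters the largest change was that of ZNF473, a zinc finger protein that takes part in the 3′ processing of histone transcripts. It was at 21.6, 24.4 and 25.3 CPM in SiCHKA and 36.7, 40.1 and 41.9 CPM in SiNTCONTROL. The log2 fold change was -0.73 (SE 0.05, edgeR adjusted p = 4.50e-09), without overlap, and all of its 40-base windows were unique.

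The other clusters were described by the member with the smallest p in each direction. In cluster 1, ZNF554 had a log2 fold change of 0.44 and ZNF57 of -0.36, both without overlap of the groups. In cluster 3, ZNF490 had 0.46 and ZNF440 had -0.35, and in cluster 5, ZNF599 had 0.68 and ZNF30 had -0.30, where ZNF490 and ZNF30 overlapped between groups. In cluster 7, ZNF428 had 0.68 and ZNF180 had -0.47. In cluster 2, ZNF562 had -0.15 with overlapping groups, and without SiCHKA replicate 6 it did not pass the threshold (edgeR adjusted p = 0.0507). With the GC and length offset it had -0.09 (edgeR adjusted p = 0.189). Members under 5 CPM reached the highest folds of all, and ZNF846, ZNF837 and ZNF404, named after their values were seen, had log2 fold changes of 1.497, 1.29 and 1.25 at SiNTCONTROL means of 0.893, 1.30 and 0.885 CPM.

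Most members were expressed at a low level. Per kilobase of exon, the median level in SiNTCONTROL was 2.05 RPKM (CPM divided by exon length in kilobases), with 58 members below 1 and 24 above 5 of 206. ZNF146, which consists almost wholly of fingers and has no KRAB box, had the highest level at 49.4 ± 3.64 RPKM (SD, n = 6). In CPM it was at 154, 162 and 181 in SiCHKA and 185, 205 and 221 in SiNTCONTROL, a log2 fold change of -0.32 (SE 0.06, edgeR adjusted p = 9.59e-05) without overlap, in a cluster where most members rose. ZNF358 and ZNF260 followed at 12.2 ± 0.584 and 10.6 ± 0.624 RPKM (SD, n = 6). ZNF358 had a log2 fold change of 0.45, which became 0.08 (edgeR adjusted p = 0.298) with the GC and length offset. ZNF260 had one of 0.13 (edgeR adjusted p = 0.0346) with overlapping groups, and it passed the threshold no longer with the replicate block or when any of SiCHKA replicates 1, 2 or 4 or SiNTCONTROL replicates 1, 2, 4 or 5 was left out, with log2 fold changes of 0.10 to 0.13.

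Features of the encoded proteins were read from the canonical coding sequences. A KRAB A box pattern was found in 174 members, of which 173 were tested. Of these, 88 rose and 27 fell, with a median log2 fold change of 0.26, and of the 30 tested members without the pattern, 16 rose and 5 fell, with a median of 0.25. The median number of C2H2 fingers was 12, from 1 to 31. Of members with 0 to 4 fingers, 7 of 9 rose and none fell, with a median of 0.38, beside the 32.1% and 30.1% over all tested genes. Those with 5 to 9 had 19 higher and 5 lower of 45 and a median of 0.20. Those with 15 or more had 37 higher and 8 lower of 59 and a median of 0.33, and those with 10 to 14 had 41 higher and 19 lower of 90 and a median of 0.18. Of 71 tested members with under 90% unique windows, 42 rose and 15 fell, and of the 132 others, 62 rose and 17 fell, with medians of 0.33 and 0.22.

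The promoter windows of 185 members could be read from RefSeq, and the letters CCAAT, on either strand, were found in 98 of them (53.0%), against 34.6% of all 35116 promoters of the same length. Each member, a protein-coding gene, had a single promoter counted, while the set of all promoters was not limited to a single promoter per gene or to expressed genes. The shares here are therefore not from matched sets. All 24 cluster 4 promoters held CCAAT and 17 of them (70.8%) held it at 2 or more places, against 10.8% of all promoters and 10.6% of the 161 members outside cluster 4. In cluster 4, CCAAT stood at 2 or more places in 9 of 11 members that fell and in 3 of 5 that rose. The share varied among the other clusters. CCAAT was found in all 3 promoters of cluster 1, in 15 of 17 (88.2%) in cluster 3 and in 31 of 47 (66.0%) in cluster 9, where most called members rose. It was found in 25.0% of cluster 6 promoters, 30.0% of cluster 8, 23.1% of cluster 2, 18.8% of cluster 7 and 2 of 4 in cluster 5. Of members outside cluster 4, 9 of 17 that fell (52.9%) and 37 of 86 that rose (43.0%) held it. The median identity between pairs of promoters within cluster 4 was 74.8%, and within each of the other clusters it was 50.8% to 53.6%. Of 4 other motifs searched on both strands, GGGCGG was found in 67.0% of member promoters and 45.0% of all, TATAAA in 2.16% and 11.5%, the Kaiso palindrome in 0.541% and 0.424%, and the NRF1 motif in 2.16% and 1.24%. None of these motifs contains another, and a match is a description of the letters alone.

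A list of genes for KRAB repression and H3K9 methylation held more members that were lower than higher. Of its 28 genes, 27 were matched and tested, 2 rose, 19 fell and 6 did not pass the threshold, with a median log2 fold change of -0.30. Over all tested genes 32.1% rose and 30.1% fell, with a median of 0.03. SUV39H1, an H3K9 methyltransferase of constitutive heterochromatin, was at 2.74, 3.23 and 3.72 CPM in SiCHKA and 19.9, 21.4 and 24.4 CPM in SiNTCONTROL. Its log2 fold change was -2.73 (SE 0.08, edgeR adjusted p = 6.23e-14), the lowest of the list, and its groups were far apart. Its paralog SUV39H2 had a log2 fold change of -0.83, CBX1 (HP1 beta) of -0.94 and DNMT1, the maintenance DNA methyltransferase, of -0.71, all 3 without overlap. Of genes named after their values were seen, CBX5 (HP1 alpha) had -1.45 and TRIM28, the corepressor that KRAB boxes bind, had -0.31 (SE 0.05, edgeR adjusted p = 4.42e-05). The rises were those of DNMT3A, a de novo DNA methyltransferase, at 0.41, and of SETDB1 at 0.14 (SE 0.05, edgeR adjusted p = 0.0203). SETDB1 overlapped between groups at 49.4, 50.9 and 52.6 CPM against 43.7, 45.8 and 50.1 CPM, and its adjusted p by edgeR was 0.0578 to 0.0719 when SiNTCONTROL replicate 2, 3 or 4 was left out. ZNF274, a chromosome 19 zinc finger gene whose protein recruits SETDB1 to the 3′ ends of other zinc finger genes, was at 12, 15.3 and 16.3 CPM in SiCHKA and 13.6, 14.9 and 16 CPM in SiNTCONTROL, a log2 fold change of 0.01 (SE 0.07, edgeR adjusted p = 0.945).

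Short words in the 3′ UTR were examined because genes holding GCCAGAT or TGCCCTT had fallen more often in an earlier look at these data. Of all tested genes with either word, 44.3% fell and 23.6% rose, against 30.3% and 33.8% of those without. Because the words were picked from these same data, this contrast is no independent evidence. The length of the 3′ UTR was not taken into account. Among the members, 37 held a word, of which 18 rose and 6 fell, and of 166 tested without one, 86 rose and 26 fell, with medians of 0.28 and 0.25. ZNF737 held 2 such words and rose, and ZNF714 held none and fell. Of the 27 genes of KRAB repression and H3K9 methylation, 8 held a word, of which 6 fell, SUV39H1, CBX5, CHD3, CHD4, HDAC1 and HDAC2, and none rose, with a median log2 fold change of -0.27. Of the 19 without a word, 13 fell and 2 rose, with a median of -0.30. An siRNA can lower transcripts whose 3′ UTR matches its seed, apart from its target. The sequences of the pool are not given in the sources used here, so whether these words match its seeds, and their part in the falls of SUV39H1 and CBX5, was not tested.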

How the data were processed

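Total RNA of C4-2 cells, which the labels describe as flow-sorted, was sequenced as TruSeq libraries, single-end. Per the submitters' processing notes, the authors aligned reads with TopHat2 2.0.4 to GRCh37, counted them per gene with HTSeq 0.5.3p9 and tested them with DESeq 1.10.1. The deposited files hold raw read counts per Ensembl gene, 4 files per sample, summed here. Lines for reads outside genes, ambiguous or not uniquely aligned stayed out of library sizes and tests. Of the 54127 identifiers, 44824 (82.8%) matched GENCODE release 44, whose GRCh38 positions are used for names and order only.

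Counts were tested with edgeR 4.0.16 (R 4.3.3) by filterByExpr, TMM scaling and quasi-likelihood fits, SiCHKA against SiNTCONTROL, without covariates, with Benjamini-Hochberg adjustment over 14501 genes and a threshold of 0.05. CPM use TMM-scaled library sizes. The fits were tested on simulated counts, where 178 of 196 genes changed 1.5-fold were recovered among 14383, with 7 false calls. Far fewer genes changed there than were called in these data, and the simulated spread was set alike for every gene. The SiCHKA replicate sets were not simulated, so the result does not carry over to them. Levels of single genes were also compared by the exact permutation test. Members, lists and tests were chosen with earlier results of these data known.

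Named members were the 10 largest rises and falls past the threshold with a mean of at least 5 CPM, the 3 highest per kilobase in SiNTCONTROL, and the smallest p in each direction in each cluster, with ZNF274, CHKA, up to 4 genes per direction of the partner list and the genes nearest the read minimum. C2H2 fingers were counted by the pattern C, 2 residues, C, 12 residues, H, 3 to 5 residues, H, and the KRAB A box by a pattern of 7 fixed letters with at most 2 different, in the first 200 residues. Alternatives were RLE normalization, DESeq2 1.42.0, the replicate block, other filters on low counts (none, or a minimum of 10 per sample), a GC and length offset (both known for 96.3% of tested genes) with and without the block, leaving out each sample or a set of 3 SiCHKA samples, a 1.5-fold minimum and a 500-read minimum. Restricting the members to those with at least 90% unique 40-base windows, or to those without the 3′ UTR words, was added after seeing the data. UHRF1 and the marker PECAM1 had no matching identifier and were not analysed here. Protein identity between members was not analysed here. Standard errors come from the quasi-likelihood fits and include the spread between samples. The CPM given for 3 reads covers counting error only.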

Additional observations from a re-analysis of the deposited data

Results flagged for a closer look

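In 108 groups of 6 samples examined with Dixon's criterion, 4 values stood apart from the others of their group, where chance flags about 1 in 20 groups, or 5.4 of them. ZNF724 had a log2 CPM of 1.64 in SiCHKA replicate 4, below the 2.09 to 2.22 of the other SiCHKA samples. ZNF85 had 2.50 in SiNTCONTROL replicate 5, below 2.93 to 3.15 in the other controls. ZNF274 had 3.60 in SiCHKA replicate 5, below 3.90 to 4.04. The median relative log2 level of cluster 9 was 0.20 in SiCHKA replicate 4, below 0.26 to 0.30 in the other SiCHKA samples and above every control.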

How the results depend on the processing

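The higher count and the positive median of the members held under RLE normalization, DESeq2, both expression filters, the replicate block and the omission of any single sample, with 95 to 105 higher and 28 to 35 lower. The median log2 fold change of the members was 0.31 with the GC and length offset, with or without the block, 0.23 with no expression filter, 0.22 without SiCHKA replicates 2, 4 and 6, and 0.22 among members with at least 90% unique windows, of which 62 were higher and 17 lower. A 1.5-fold minimum left 34 higher and 9 lower, 15 and 20 for ZNF genes on other chromosomes, and 0 and 5 for the partner list. Of all tested genes, 13.4% were called higher and 11.3% lower at that minimum. With the GC and length offset, without and with the block, cluster medians were 0.21 and 0.21 (cluster 2), 0.11 and 0.11 (cluster 3), -0.0480 and -0.0501 (cluster 4), 0.52 and 0.53 (cluster 6), 0.33 and 0.33 (cluster 7), 0.55 and 0.56 (cluster 8), 0.30 with the block in cluster 9, and -0.21 and -0.21 for the partner list. Without SiCHKA replicates 2, 4 and 6 they were 0.24 (cluster 2), 0.32 (cluster 6), 0.12 (cluster 7) and -0.23 (partner list). Without replicates 1, 3 and 5 they were 0.33 (cluster 5), 0.42 (cluster 8) and 0.21 (cluster 9). Among members with at least 90% unique windows they were 0.22 (cluster 2), -0.060 (cluster 4), 0.33 (cluster 6) and 0.58 (cluster 8), and without the 3′ UTR words cluster 3 was at 0.12. Leaving out 1 sample at a time gave -0.00427 to 0.0778 for cluster 3, 0.17 to 0.27 for cluster 7, highest without SiNTCONTROL replicate 4, and -0.31 to -0.24 for the partner list. In the partner list 1 gene was higher with no filter, and 1 to 2 when 1 sample was left out. ZNF274, which did not pass the threshold, had a negative log2 fold change under 9 alternatives: -0.00085 with RLE, -0.0229 with no filter, -0.0077 without SiCHKA replicates 2, 4 and 6, and a range of -0.0288 to 0.0525 when 1 sample was left out (-0.00405, -0.0216 and -0.00056 without SiCHKA replicate 1, 3 or 6, and -0.00578, -0.00893 and -0.0288 without SiNTCONTROL replicate 1, 3 or 4). Over 41 named genes and 21 refits, 830 values kept their direction and their side of the threshold, 22 fell short of the threshold (ZNF358, ZNF260, ZNF554, ZNF562 and SETDB1) and 9 changed sign. The cause was not tested.

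Replicate numbers did not pair the samples: same-numbered samples had deviations correlated at -0.40 to 0.32, and 1 of 6 SiCHKA samples correlated best with its own number. With the replicate block, 102 members were higher and 31 lower, with a median of 0.26.

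Low levels limit the clusters: the median member was at 10.4 CPM. Reads that aligned to more than 1 place were not counted, so values of members with few unique windows are the more uncertain. The median share of unique windows was lowest in cluster 4, at 85.0%. Members with low shares also lay in other clusters, such as ZNF443 of cluster 3 (55.3%) and ZNF417 of cluster 9 (55.6%).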
